A study of Caenorhabditis elegans with 4 samples.

Results

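The broad COH-3 domains are the widest peaks in a ChIP-seq profile of COH-3 from adult Caenorhabditis elegans. They were chosen by width alone, as the peaks of 1200 bp or more on the 6 nuclear chromosomes in the list deposited for the whole series. There were 530 of them among 7498 peaks, of which 7495 were nuclear and 6965 of these were narrower. A domain here means such a wide peak, with nothing implied about the chromatin it lies in. The profile came from 4 libraries, 2 made after COH-3 immunoprecipitation and 2 from input, all of fem-2(b245) III hermaphrodites with a temperature of 20 °C in the study's design. The stage label says young adult with a germ line, while the growth protocol describes gravid adults harvested from synchronized batch cultures. No group without COH-3 or with another fem-2 allele was part of the comparison, so every library carried the same genotype. COH-3 was precipitated with SDQ3972, an affinity-purified polyclonal rabbit antibody, from whole ground animals, so no domain is assigned to a tissue or germ cell stage. Peaks were available for each ChIP library, called replicates 1 and 2 as in their labels, and for the series as a whole. The labels do not say whether the replicates came from separate cultures, and the read depth behind the lists is unknown. The input libraries were not analysed here.

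COH-3 is a kleisin, the subunit that closes the cohesin ring around DNA. Cohesin holds sister chromatids together, and in meiosis it also forms the axis from which chromatin loops extend and on which homologous chromosomes pair and recombine. In C. elegans, COH-3 acts in meiosis together with its close paralogue COH-4 and beside another meiotic kleisin, REC-8. Whether the antibody also recognised COH-4 was not tested. The autosomes of this animal have gene-dense centres flanked by arms with more repeats and more crossing over, and the X chromosome is largely silent through much of germline meiosis. The gene fem-2 acts in sex determination, and its loss feminizes the germ line. Whether that had happened at this temperature was not assessed here.

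The domains made up few of the peaks and a large part of the sequence they covered. They were 7.07% of the nuclear peaks (95% exact binomial interval 6.50 to 7.68) and held 1192 kb of 3598 kb covered, or 33.1% of the covered bases and 1.19% of the genome extent. Their median width was 1721 bp, with quartiles of 1427 and 2563 bp, against a median of 287 bp over all nuclear peaks. Most were near the lower limit: 213 reached 2 kb, 93 reached 3 kb, 22 reached 5 kb and 4 reached 10 kb. The 22 domains of 5 kb or more held 12.96% of the domain bases. Since width chose the members, these values describe the choice and carry no test. Just inside the limit lay a peak of 1200 bp at II:14492344-14493543, scored 21.62, and one of 1203 bp at IV:9739244-9740446, scored 11.58. Just outside lay peaks of 1199 bp at V:6784200-6785398 and of 1197 bp at IV:5471072-5472268, scored 19.97 and 10.45. The first of these overlapped a 1331 bp peak in replicate 2, so the limit does not separate sites that are wide in a library from sites that are not.

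The replicates differed in how much wide signal they held. Applied to each library's own list, the same limit gave 167 broad peaks among 1812 in replicate 1 and 559 among 3332 in replicate 2, a mean of 363 ± 277 (SD, n = 2). Broad peaks held 36.4% of the covered bases in replicate 1 and 47.2% in replicate 2, a mean of 41.8 ± 7.62% (SD, n = 2). Both libraries thus had a larger part of their covered sequence in broad peaks than the 33.1% of the series-wide list. The replicate lists come from MACS and the series-wide list from MACS v2. Different callers can change peak width, which limits this and every later comparison of widths between the series-wide and replicate lists. The median width of these broad peaks was 1776 bp in replicate 1 and 1844 bp in replicate 2, close to the 1721 bp of the domains. No test over the 2 ChIP libraries was made, and the intervals given here cover counting error over peaks only. Neighbouring peaks are not independent, so the true uncertainty is larger.

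Some of the widest domains looked different in the 2 libraries, and others looked alike. Over the 22 domains of 5000 bp or more, replicate 1 peaks covered a median of 93.1% of a domain, against 28.9% at 1200 to 1499 bp. For replicate 2 these medians were 99.9% and 99.0%. Coordinates are on WormBase WS220, equivalent to ce10. The widest of all spanned 11727 bp near the left end of chromosome III, from 321653 to 333379, with a score of 37.56. Replicate 2 had a single peak of 11739 bp over it, while replicate 1 had 7 separate peaks of 159 to 261 bp that covered 12.9% of it. The replicate lists use another score scale, on which the commonest value, 3100, was shared by 31 peaks of replicate 1 and 118 of replicate 2, close to the top of either list. That replicate 2 peak scored 3100, and the 7 replicate 1 peaks scored 51.62 to 110.12, below their list's median of 130.81. The domain was therefore called as a single peak in replicate 2 and as 7 short peaks in replicate 1. Peak lists do not show the signal between those short peaks.

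The second, 11714 bp on chromosome I from 10207556 to 10219269, was covered throughout in both libraries. Replicate 1 split it into 3 peaks of 2414, 5001 and 4291 bp that covered 99.9% of it with gaps of a few bases, and replicate 2 had a peak of 15306 bp, the widest of its list, that ran beyond its left edge. This replicate 2 peak scored 142.89, near its list's median of 146.27. The third, 11169 bp from 15060209 to 15071377, lay at the right end of chromosome I and stopped 1074 bp short of the last peak end there. It was 1 peak in each library, of 11149 and 11172 bp, both with the score of 3100, and thus had nearly the same borders in all 3 lists. The array of ribosomal RNA genes is known to lie at that end of chromosome I. In the RefSeq gene table for WBcel235, which is another build, 4 of the last 8 genes listed on the chromosome are ribosomal RNA genes (rrn-1.1, rrn-2.1, rrn-3.1 and rrn-1.2). Whether the domain covers them was not analysed here, since no annotation of WS220 was used.

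The fourth, 10911 bp on chromosome X from 16929343 to 16940253, scored 180.97, behind only 2 other domains. It was 4 peaks in replicate 1 and 2 in replicate 2, which covered 94.9% and 98.5% of it, and in each library a break fell at nearly the same place, 1190 to 1249 bp right of its centre. The fifth, 8900 bp on chromosome II from 3159591 to 3168490, had a score of only 16.30. It had no peak in replicate 1 and 4 in replicate 2, of 549 to 5134 bp, which covered 98.7% of it. This was the widest domain without a replicate 1 peak.

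The next 4 all lay on chromosome V. The sixth, 8245 bp from 7916778 to 7925022, was covered to 99.0% by 2 peaks in replicate 1 and wholly by a 9697 bp peak in replicate 2. The seventh, 6777 bp from 17119867 to 17126643, was 1 peak of 6790 bp in replicate 1 and lay inside a 13246 bp peak in replicate 2. The eighth, 6718 bp from 9338309 to 9345026, was 1 peak in each library, of 6239 and 6471 bp. These domains were thus wide in both libraries, and replicate 2 drew wider borders around 2 of them. The ninth, 6624 bp from 3434568 to 3441191, was a 6768 bp peak in replicate 2 and peaks of 2595 and 1111 bp in replicate 1, which covered 55.9% of it. The tenth, 6586 bp on chromosome I from 7866109 to 7872694, was broken up in both libraries, into 6 peaks in replicate 1 and 2 in replicate 2, with 88.1% and 87.8% of its bases covered. Of the 10 widest, 3 lay on chromosome I, 4 on V and 1 each on II, III and X, and none on IV.

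**Figure D1:**
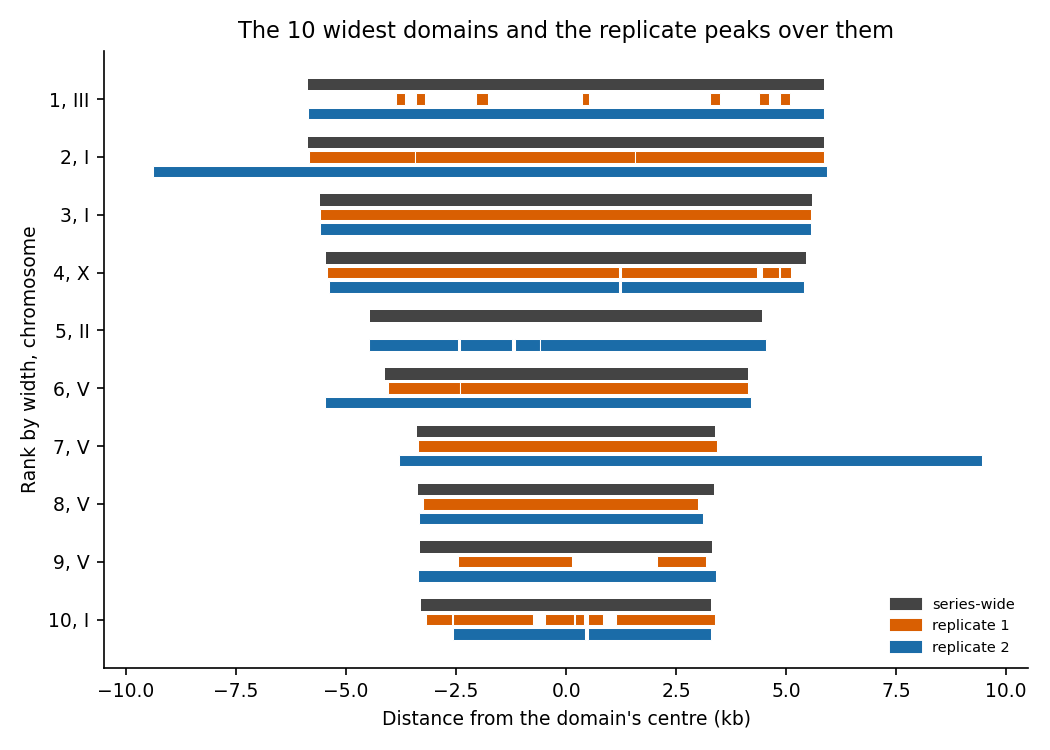
Extent of the 10 widest series-wide domains (grey) and of every replicate 1 (orange) and replicate 2 (blue) peak that overlaps them, as distance from the domain's centre in kb, with one row per domain ordered by width. Replicate 2 covers 87.8% or more of each, while replicate 1 ranges from a single matching peak (the third, the seventh and the eighth) to 7 short peaks (the first) and no peak (the fifth).

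The domains stood high in the authors' score, a value on the peak caller's own scale that serves only to rank peaks within their list. Their median score was 34.05, with quartiles of 17.88 and 55.94, against 5.89 for the narrower peaks. Of the 530 domains, 464 (87.5%, 95% exact interval 84.4 to 90.2) scored in the top 25% of the list, and 4 scored below its median of 6.24. Width and score come from the same calling step, so this is a description of the caller's output. The ranking was not simply one of width. Among the 100 highest-scoring peaks 55 were broad and the others narrower, and 218 narrower peaks scored above the domains' own median. Over the domains, Spearman's rho of width and score was 0.31 (Pearson's r of their log2 values 0.30, n = 530), and over the narrower peaks rho was 0.61 (n = 6965). Peaks of one list share the same libraries and caller, so these correlations are descriptions.

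**Figure D2:**
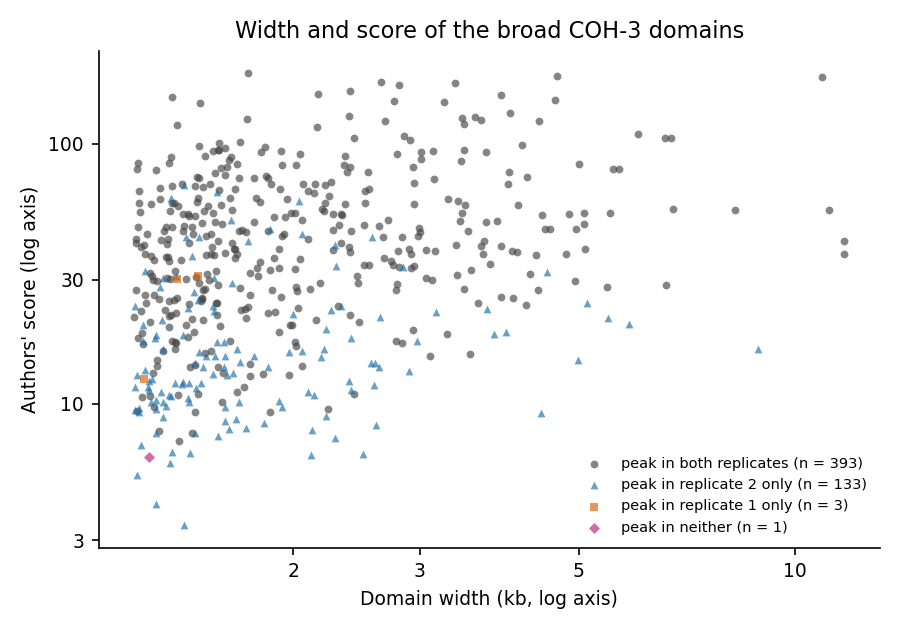
Width in kb against the authors' score, both on log axes, for each of the 530 domains, with symbols for the replicates that have a peak over it. The 133 domains found only in replicate 2 have a median score of 14.31, against 42.86 for those found in both, and the widest domains span scores from 16.30 to 180.97.

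The 5 highest-scoring domains were of ordinary to great width and were wide in both libraries. The first, at X:1503411-1505138 and scored 186.41, was 1728 bp wide and corresponded to 1 peak of 1889 bp in replicate 1 and 1 of 1535 bp in replicate 2. The next, at V:723583-728240 and scored 181.77, was 4658 bp wide, against 4813 and 4354 bp in the replicates. The X domain of 10911 bp described above came after it. The fourth, on chromosome V from 13907121 to 13909769, scored 172.80 and had a width of 2649 bp, against 2724 and 2026 bp. The fifth, on chromosome IV from 11912894 to 11916252, scored 170.57 and had a width of 3359 bp, against 3395 and 3158 bp. At 4 of the 5 sites, each library thus had a single peak, the one of replicate 1 slightly wider than the domain and that of replicate 2 slightly narrower. Over the whole lists the order was the other way round: the median peak was 380 bp wide in replicate 1, against 528 bp for the other library.

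By chromosome, the density of domains followed that of the peaks as a whole. Chromosome III carried 7.62 domains per Mb, the highest density, followed by I at 6.04, IV at 5.72, II at 5.56 and V at 4.78, with X lowest at 2.77. As numbers these were 105 on III, 100 each on IV and V, 91 on I, 85 on II and 49 on X. Set against the rest of the genome by length, the log2 ratio was 0.63 on III (95% exact interval 0.31 to 0.94) and -1.08 on X (-1.53 to -0.65, the rest being the autosomes). On I, II, IV and V the intervals included 0. X held 9.25% of the domains (6.92 to 12.04), while 9.15% of all nuclear peaks lay there. The log2 ratio of X over the autosomes was -1.08 for the domains and -1.09 (-1.21 to -0.97) for the narrower peaks, so the narrower peaks had as low a relative density there. The share of peaks that were broad ran from 5.99% on I to 8.61% on V, with X at 7.14% and the genome at 7.07%.

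The libraries gave different values on X, with overlapping intervals. Broad peaks of replicate 2 numbered 55 on X and 504 on the autosomes, a log2 density ratio of -0.98 (95% exact interval -1.40 to -0.57). Those of replicate 1 numbered 25 and 142, a ratio of -0.29 (-0.96 to 0.33), so in that library a lower density on X was not detectable at this number of peaks. Within each library the density on X was the lower one, at 1.41 against 1.72 broad peaks per Mb on the autosomes in replicate 1 and 3.10 against 6.11 in replicate 2. Of all peaks on X, 8.39% were broad in replicate 1 and 20.99% in replicate 2, against 9.22% and 16.78% over the whole lists. Relative to a library's own peaks, broad peaks on X were thus slightly rarer in replicate 1 and commoner in replicate 2, which was not tested. The mean of the log2 ratios was -0.63 ± 0.49 (SD, n = 2), which was not tested. For III the ratio to the rest was 0.57 (0.25 to 0.88) in replicate 2 and 0.21 (-0.45 to 0.82) in replicate 1. For IV it was 0.42 (0.12 to 0.71) in replicate 2 and 0.05 (-0.57 to 0.63) in replicate 1. The series-wide ratio was nearer to that of replicate 2 on II, III, V and X, and nearer to that of replicate 1 on I and IV.

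**Figure D3:**
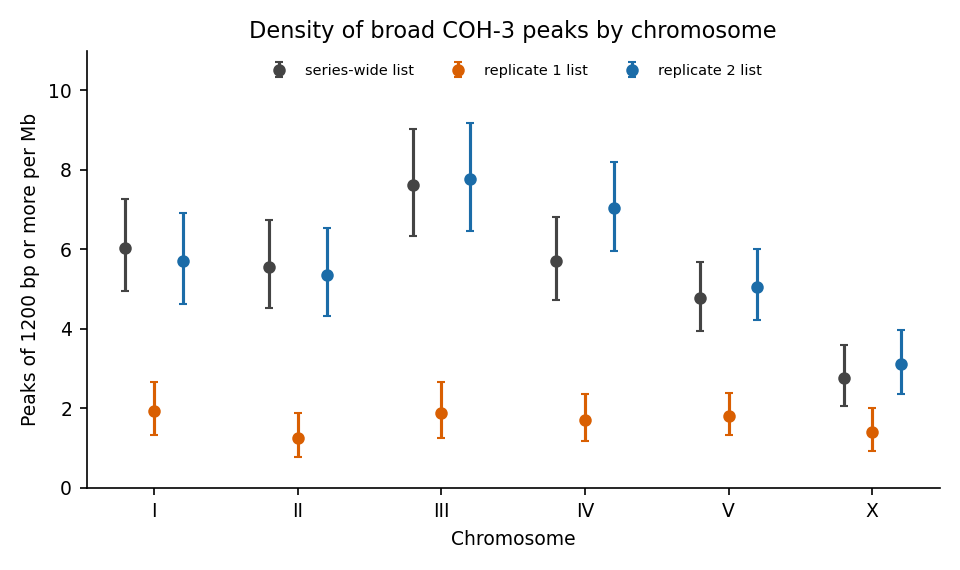
Peaks of 1200 bp or more per Mb on each chromosome in the series-wide list (grey), replicate 1 (orange) and replicate 2 (blue), with bars for the 95% exact binomial interval of the chromosome's share, which covers counting error only. X is lowest in the series-wide list (2.77) and in replicate 2 (3.10), while in replicate 1 the 6 chromosomes lie between 1.24 and 1.92 with overlapping bars.

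The domains on X were few, had widths within the autosomal range and had the highest median score. Their median width was 1739 bp, within the range of the autosomes from 1659 bp on II to 1744 bp on V, and they held 36.4% of the covered bases of X, within the autosomal range from 28.9% on I to 38.8% on V. The median score was 43.70 on X and lay between 22.57 on III and 41.14 on IV among the autosomes. Chromosome III, with the highest density, thus had the lowest median score, and X, with the lowest density, the highest. The lead of X was in the median only. Its upper quartile, 53.61, was below those of IV (66.01), V (58.86) and II (55.24), and above those of I (52.95) and III (47.94). In both libraries the share of domains with a broad peak of the library's own was at the upper end on X: 20 of 49 (40.8%, 95% exact interval 27.0 to 55.8) in replicate 1, against 125 of 481 autosomal domains (26.0%, 22.1 to 30.2), and 43 of 49 (87.8%, 75.2 to 95.4) against 394 of 481 (81.9%, 78.2 to 85.3) in replicate 2. These intervals overlap, and the difference was not tested. Chromosome V stood close to X, with 34.0% of its domains in replicate 1 and 89.0%, more than on X, in replicate 2.

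Between the central 33.3% of the autosomes and their outer parts, the series-wide domains showed no difference in density beyond counting error. The central 33.3% of the extent held 161 of 481 autosomal domains, or 33.5% (95% exact interval 29.3 to 37.9), a density of 5.85 per Mb against 5.81 in the outer parts and a log2 ratio of 0.01 (-0.27 to 0.29). Of all autosomal series-wide peaks, 38.0% lay in that centre, and of the narrower ones 38.3% (37.1 to 39.5), a log2 ratio of 0.31 (0.24 to 0.39). A higher density in the centre was thus seen among the narrower peaks, and whether the domains differ from them was not tested. In the libraries' own lists, the share of broad autosomal peaks in the centre was 41.5% (33.3 to 50.1) in replicate 1 and 34.1% (30.0 to 38.4) in replicate 2. The corresponding log2 ratios were 0.51 (0.00085 to 1.01) and 0.05 (-0.22 to 0.32), a mean of 0.28 ± 0.32 (SD, n = 2). The interval of replicate 1 thus lay just above 0. The central share of all peaks in each library's own list is not given here. Whether these values are particular to broad peaks was therefore not tested. By chromosome, the share of domains in the centre ran from 29.4% on II to 38.1% on III. On X it was 13 of 49, or 26.5% (14.9 to 41.1). With the centre taken as the middle 50% of the extent, the autosomal log2 ratio was 0.32, so the near equality did not hold for that definition. With the central 33.3%, the ratio was 0.26 after joining series-wide peaks closer than 500 bp. It was 0.13 with a limit of 2000 bp and 0.07 with 1000 bp. These values lay within the interval of the reported ratio, but the near equality also depends on how the list divides peaks. For the middle 50%, no interval and no value for the narrower peaks is given here.

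**Figure D4:**
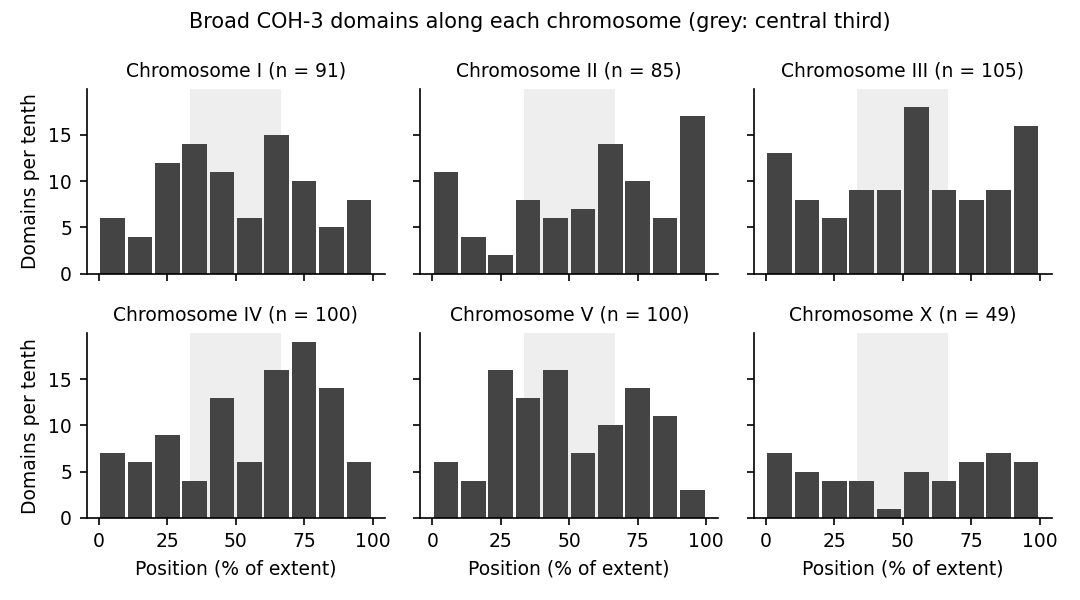
Number of domains in each 10% step of the chromosome extent, with position as a percentage of the extent from its left end and the central 33.3% in grey. Domains occur along all chromosomes, and the last 10% at the right holds 17 on II and 16 on III.

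At a finer scale the domains were unevenly placed. Of 97 full bins of 1 Mb, the median held 5 domains, 9 held 10 or more and 2 held none. The fullest were on chromosome I from 10 to 11 Mb with 16 domains, on III from 7 to 8 Mb with 15 and on IV from 13 to 14 Mb with 15. In the same bins the replicates' own lists held 8, 4 and 3 broad peaks in replicate 1 and 7, 18 and 15 in replicate 2. The bin on I was thus the only one of the 3 in which replicate 1 had as many broad peaks as replicate 2, and on III and IV most of the libraries' own broad peaks were those of replicate 2. In the bin on I, replicate 2 peaks of 15306, 10063 and 7333 bp each lay over several domains. Replicate 1 divided the 11714 bp domain there into 3 broad peaks. Counts per bin thus depend on how each list divides wide regions, and equal counts do not mean equal wide signal. The empty bins lay on V from 12 to 13 Mb, where replicate 1 had 2 broad peaks and replicate 2 none, and on X from 8 to 9 Mb, where neither had any. Bins with more domains tended to hold more narrower peaks, with Spearman's rho at 0.46 (Pearson's r 0.46) over the 97 bins, which share libraries and caller. Chromosome ends varied as well: the last 1 Mb held 12 domains on III and 10 on II but none on V.

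A part of the domains stood close together. The distance from a domain to the nearest other one had a median of 43.6 kb, and 176 of 530 (33.2%, 95% exact interval 29.2 to 37.4) had another within 10 kb. Of the narrower peaks, 1323 of 6965 (19.0%) lay within 10 kb of a domain, at a median distance of 58.7 kb. Domains joined by gaps of at most 10 kb formed 72 runs, 48 of them pairs and 24 of 3 or more, while 354 domains stood alone. Close neighbours were rarer on X, where 6 of 49 domains (12.2%) had another within 10 kb, against 32.0% to 38.5% on the autosomes. The median distance there was 175 kb, against 18.2 kb on III. The density of domains was also lowest on X, and its part in these distances was not tested.

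Some neighbouring domains were separated by short gaps. Among the 524 gaps between neighbouring domains, 43 (8.21%) were under 500 bp, the smallest being 45 bp. In replicate 2, 20 peaks each spanned 2 or 3 domains and together held 44 of them, while in replicate 1 only 2 peaks did so, with 4 domains. A narrower peak lay within 1 kb of 299 domains (56.4%), near the background, since 3444 of the 6965 narrower peaks (49.4%) also had another narrower peak that close.

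The largest run held 6 domains within 23.6 kb on chromosome V, from 6070671 to 6094251. Its first domain, from 6070671 to 6073522, was 2852 bp wide and scored 107.49, and the fifth, from 6091286 to 6092920, was 1635 bp wide and scored 89.13. These were the only members with a replicate 1 peak: the first had 2, of 626 and 706 bp, and the fifth had 1 of 640 bp. The other members, at 6075047 to 6076265, 6078945 to 6080705, 6085883 to 6087189 and 6092993 to 6094251, were 1219 to 1761 bp wide and scored 9.68 to 15.29. Replicate 2 had peaks over all 6, one of which, of 2184 bp, reached over both the fifth and the last member. The run thus consisted of a pair of high-scoring domains with peaks in both libraries and 4 low-scoring ones with peaks in replicate 2.

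The remaining question was whether a domain is one peak or several in each library. In replicate 2 it was nearly always a peak and mostly one: 526 of 530 domains (99.2%, 95% exact interval 98.1 to 99.8) overlapped a replicate 2 peak by at least 1 bp, 444 (83.8%, 80.4 to 86.8) a single one and 82 (15.5%, 12.5 to 18.8) several, up to 4. In replicate 1, 396 (74.7%, 70.8 to 78.4) overlapped a peak, 246 (46.4%, 42.1 to 50.8) a single one and 150 (28.3%, 24.5 to 32.3) several, up to 7, and 134 (25.3%) had none. Over all series-wide nuclear peaks, 47.3% overlapped replicate 2 and 20.5% replicate 1, and 1.81% and 2.60% had several peaks there. A wide peak has more room to meet others, and the series-wide list is made from the same libraries in a way the sources used here do not state, so these shares are no independent evidence for the domains.

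Set side by side, 222 domains (41.9%, 95% exact interval 37.6 to 46.2) were 1 peak in both libraries. Another 121 (22.8%) were several peaks in replicate 1 and 1 in replicate 2, while 21 (3.96%) were the reverse, and 29 (5.47%) were several in both. Replicate 2 alone had a peak at 133 domains, 1 peak at 101 and several at 32. Both libraries had a peak at 393 domains (74.2%, 70.2 to 77.8), against 13.9% of all series-wide nuclear peaks. Replicate 1 alone had a peak at 3 domains, on II from 9933516 to 9934754, on IV from 12527887 to 12529263 and on V from 10937175 to 10938646, of which the last lay inside a 2268 bp peak of that library. They are named because they were so few, after their values were seen. One domain, of 1258 bp at I:462435-463692 and scored 6.24, had no peak in either library, as did 46.1% of all series-wide nuclear peaks.

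Coverage showed the same contrast base by base. The peaks of replicate 2 covered 92.5% of all domain bases and a median of 99.1% of a domain (quartiles 91.1% and 100%). Those of replicate 1 covered 49.6% of the bases and a median of 40.4% of a domain (quartiles 0% and 80.3%). At least 90% of the domain was covered at 403 domains in replicate 2 and at 103 in replicate 1. Less than 10% was covered at 4 and 142 domains. In replicate 1 the remaining 285 domains (53.8%) spread over the whole range between, so most domains were neither complete nor missing there.

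**Figure D5:**
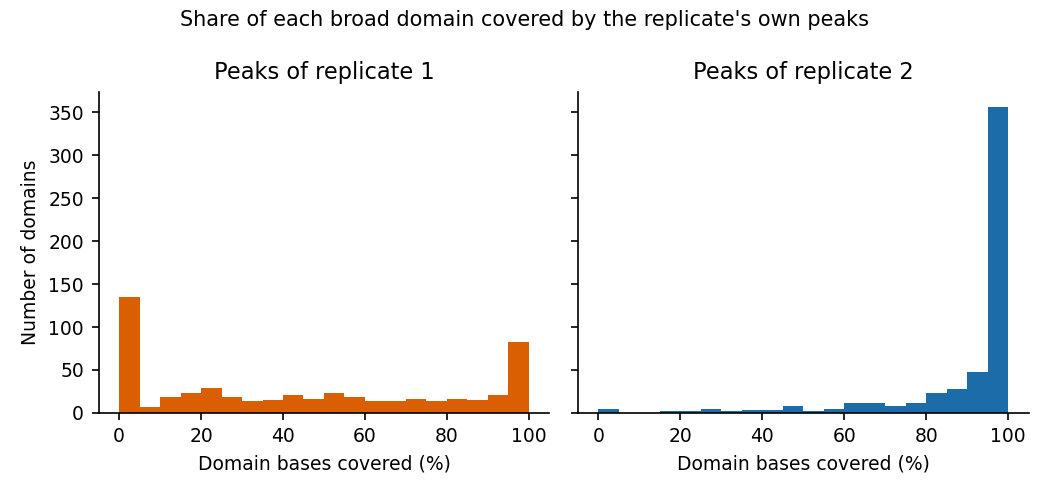
Number of domains by the percentage of their bases covered by the peaks of replicate 1 (left, orange) and replicate 2 (right, blue), in steps of 5 percentage points. Replicate 2 piles up at full coverage, with 403 domains at 90% or more, while replicate 1 has 142 domains under 10%, 103 at 90% or more and the rest between.

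Where replicate 1 had several peaks, the breaks between them were short. In its 150 such domains there were 223 gaps with a median of 116 bp, of which 203 (91.0%) were under 500 bp. Its peaks covered a median of 61.4% of these domains, and those of replicate 2 covered 98.5%. Replicate 2 had a single peak at 121 of the 150 (80.7%) and several at the other 29. In the 82 domains that replicate 2 divided, the median gap was 51.5 bp and its peaks covered a median of 91.8%. Replicate 1 had 1 peak at 21 of these, several at 29 and none at 32, and covered a median of 19.8% of them. These domains scored 20.67 at the median, against 37.72 for domains with 1 replicate 2 peak. When peaks of a replicate closer than 500 bp were joined, the mean share of domains with several peaks fell from 21.9 ± 9.07% (SD, n = 2) to 1.98%.

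A comparison at equal list lengths was added after the data were examined. With replicate 2 reduced to its 1812 best-scoring peaks, as many as replicate 1 has, 512 domains (96.6%) still overlapped one, 469 (88.5%) a single one and 43 (8.11%) several, and the median coverage was 99.1%. The reduced list kept 547 of the 559 broad peaks of replicate 2, so cutting by score could remove few of the overlaps with domains. The part of list length in the contrast was therefore not tested. Read depth and peak shape could not be compared, and their part in the contrast was not tested.

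Domains missing from replicate 1 tended to have lower series-wide scores, though they reached 69.16. The series-wide list is made from the same libraries, so that score is not independent of the replicate 1 peaks. The 134 without a replicate 1 peak had medians of 14.08 for score and 1566 bp for width. Those with 1 replicate 1 peak had medians of 42.53 and 1629 bp, and those with several had medians of 43.23 and 2393 bp. Domains divided in replicate 1 were thus wider than undivided ones at a similar score. The share found in both libraries was 64.6% (95% exact interval 57.1 to 71.6) at 1200 to 1499 bp and 90.1% (80.7 to 95.9) at 3000 to 4999 bp. The share with several replicate 1 peaks was 14.6% and 62.0% in these classes, and 45.5% (10 of 22) at 5000 bp or more. Of these 22 widest domains, 18 were found in both libraries and 4 had no replicate 1 peak. Among the 356 autosomal domains found in both libraries 35.4% lay in the central 33.3% of the extent, and among the 122 without a replicate 1 peak 27.0% did.

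By the width rule itself, the libraries shared a minority of the domains. Both had a peak of 1200 bp or more of their own at 127 domains (24.0%, 95% exact interval 20.4 to 27.8). Replicate 2 alone had one at 310 (58.5%, 54.2 to 62.7) and replicate 1 alone at 18 (3.40%). At 75 domains (14.2%) neither library had a broad peak, so that the series-wide list alone made the region wide. The same shares over all series-wide nuclear peaks are not given here, so these values have no background beside them. The 127 shared domains had medians of 2710 bp for width and 47.02 for score, and replicate 1 covered a median of 96.9% of them. Those wide only in replicate 2 had medians of 1664 bp and 32.59, and replicate 1 covered 21.7%. The 75 wide in neither had medians of 1380 bp and 17.32.

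In the opposite direction, a domain was overlapped by 157 of the 167 broad peaks that replicate 1 had (94.0%, 95% exact interval 89.3 to 97.1). In replicate 2 it was 428 of 559 (76.6%, 72.8 to 80.0). The share of all peaks of each library that overlap a domain is not given here. These 2 values therefore have no background beside them and do not compare the libraries. The 131 broad peaks of replicate 2 without a domain had a median width of 1517 bp and reached 4523 bp. Of these, 85 overlapped several narrower series-wide peaks, up to 5, 41 overlapped one, and 5 overlapped no series-wide peak. Wide peaks of replicate 2 were thus at times divided in the series-wide list. Among all its 559 broad peaks, 182 (32.6%) overlapped more than one series-wide peak, and 137 (24.5%) more than one replicate 1 peak. Among the 167 of replicate 1, 17 (10.2%) overlapped more than one series-wide peak and 8 (4.79%) more than one replicate 2 peak.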

How the data were processed

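Per the submitters' processing notes, reads were aligned with BWA to ce10, with no version given. Per the labels' protocols, frozen, ground worms were crosslinked in EGS (20 min), then in EGS plus formaldehyde (10 min), before sonication. The authors deposited peak lists on WormBase WS220 with a score per peak. Per the file headers and source columns, the replicate lists come from MACS and the series-wide list from MACS v2. Thresholds, score scale, use of input, duplicate removal and how the series-wide list was made: each is not given in the sources used here, and different callers can change peak number and width. Peaks, widths, overlaps (at least 1 bp), coverage and gaps were computed with Python 3.11.15, numpy 2.4.6, pandas 2.3.3 and scipy 1.17.1, and plots with matplotlib 3.10.9. Each chromosome's extent was taken to end with its rightmost peak over the 3 lists (100.27 Mb summed), and centre and arms were assigned by the peak's midpoint. The 3 mitochondrial series-wide peaks were left out. Intervals are 95% Clopper-Pearson intervals. No hypothesis test was made. The overlap, joining and density-ratio functions were tested on simulated data. Domains described by position were the 10 widest, the 5 with the highest score, the largest run, the 1 without a replicate peak and the 2 on each side of the limit. The members and these lists were chosen with earlier results of these data known. No sequence or gene assignment is given, since no WS220 genome or annotation was used. The planned comparison of the antigen in COH-3 and COH-4 was not made. The files held 0 columns from other samples.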

Additional observations from a re-analysis of the deposited data

How the results depend on the processing

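The number of domains depends on the limit and on joining: it was 213 with a limit of 2000 bp and 871 after joining series-wide peaks closer than 500 bp, and in the libraries' own lists it ranged from 167 to 559. The share of covered bases in domains was 19.9% with 2000 bp, 55.2% after joining and 44.6% in the better-scoring 50% of the list, and ranged from 36.4% to 47.2% in the libraries. The log2 ratio of X over the autosomes kept its sign under each alternative run, and ranged from -0.98 to -0.29 in the libraries. The autosomal centre ratio ranged from 0.051 to 0.51 in them, was 0.32 with the central 50% and was 0.26 after joining series-wide peaks. The share of domains with another nearby was 29.1% within 5 kb, 40.2% within 20 kb and 13.6% with the 2000 bp limit. The share found in both replicates was 69.2% with a limit of 1000 bp, 80.8% with 2000 bp, 57.1% after joining, and 40.2% when 50% of the domain had to be covered in each library. The mean share with several replicate peaks was 31.7% with 2000 bp, 33.6% after joining series-wide peaks and 1.98% after joining replicate peaks, and ranged from 15.5% to 28.3% in single replicates. Joining and the coverage requirement change what counts as a domain or as found, and beyond that the cause was not tested. Leaving out the 22 domains wider than 5 kb or near an end (none lay within 1 kb of one), and using equal numbers of replicate peaks, moved no value beyond its interval or the replicates' SD. The use of equal numbers for the share with several peaks (18.2%) was chosen after the data were examined. Equal numbers kept the best-scoring peaks of replicate 2, and with them most of its broad peaks, so little change could arise there. No paired analysis was possible because peak lists were used for ChIP libraries alone, and none for the inputs that carry the same numbers. Unknown read depth limits all comparisons between the libraries.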

Other observations

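Outside the nuclear chromosomes, the series-wide list held 3 peaks on mitochondrial DNA, of 10545, 2233 and 264 bp, with scores of 46.72, 52.09 and 29.71. Of these, 2 would pass the limit of 1200 bp. Replicate 1 had 1 mitochondrial peak of 13374 bp, scored 1503.17 on its own list's scale, and replicate 2 had 0.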
